A study of Homo sapiens with 6 samples.

Results

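C15orf48 and NDUFA4 are paralogous genes for alternative small subunits of cytochrome c oxidase, complex IV of the mitochondrial respiratory chain. They were found as the rows with these gene names and make up 2 of the 19201 entries of a gene count table from H1299, a human cell line grown from a non-small cell carcinoma of the lung. The pair was chosen by the measured counts of these same overexpressing and control libraries, so both genes are described here without a test. The table holds 3 control libraries, from wild-type cells, and 3 libraries from cells made to overexpress lncBCAS1-4_1, a long non-coding RNA. All 6 are RNA-seq libraries of total RNA. The labels give no vector for the controls, no promoter or clone for the overexpressing cells and no statement that replicates were separate cultures. The overexpression procedure and the RNA itself therefore cannot be told apart, and a p-value covers no more than the spread among these 6 libraries, which may be technical. In bulk RNA, fewer cells of a type and less RNA per cell also cannot be told apart.

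Cytochrome c oxidase passes electrons from cytochrome c to oxygen and pumps protons. Its catalytic core is encoded by mitochondrial DNA and its other subunits by the nucleus. NDUFA4 was first assigned to complex I and is now known as a subunit of complex IV made in most tissues. C15orf48, also called NMES1 or MOCCI, is a relative that inflammatory signals induce through NF-kappaB, and its protein can take the place of NDUFA4 in the enzyme. The microRNA miR-147b is cut from the same transcript and is known to act on NDUFA4 RNA, so the locus can lower the constitutive subunit while supplying the inducible one. NDUFA4L2, the remaining paralogue, is known as a hypoxia-induced gene.

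The promoters are shown because the genes differ in how their transcription is controlled, and the microRNA and its site because they link the pair. All come from RefSeq on GRCh38.p14 except the site, which is reference genome sequence of GRCh38. RefSeq lists the genes as COXFA4L3 and COXFA4. Each promoter is the 250 bases before the RefSeq start, which is also that of the GENCODE 44 canonical transcript. Another C15orf48 isoform in GENCODE starts earlier, so the last 31 bases of that window lie inside the gene's full span. The C15orf48 promoter lies at chr15:45430360-45430609 on the plus strand, and capitals mark matches to TATANA or, on either strand, GGGCGG.
C15orf48 promoter: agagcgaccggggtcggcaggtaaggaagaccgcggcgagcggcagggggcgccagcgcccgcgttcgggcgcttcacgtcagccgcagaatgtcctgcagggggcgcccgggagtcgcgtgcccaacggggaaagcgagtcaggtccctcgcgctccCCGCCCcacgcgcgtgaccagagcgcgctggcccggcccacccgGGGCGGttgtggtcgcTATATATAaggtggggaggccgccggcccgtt
The NDUFA4 promoter lies at chr7:10940154-10940403 on the minus strand and held no match to any motif searched.
NDUFA4 promoter: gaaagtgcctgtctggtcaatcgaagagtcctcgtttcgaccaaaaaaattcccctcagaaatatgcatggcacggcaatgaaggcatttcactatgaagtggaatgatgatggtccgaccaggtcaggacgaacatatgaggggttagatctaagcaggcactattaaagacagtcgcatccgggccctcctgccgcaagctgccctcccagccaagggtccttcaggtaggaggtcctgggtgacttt
The mature microRNA lies at chr15:45433098-45433118 on the plus strand, and capitals mark its seed, bases 2 to 8.
hsa-miR-147b-3p: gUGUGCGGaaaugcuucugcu
The site in NDUFA4 lies at chr7:10933566-10933595 on the minus strand, and capitals mark the 7 bases that pair with the seed.
NDUFA4 site: ttccagaagccacatCCGCACAattttcca

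The C15orf48 promoter had a GC content of 73.6% and the NDUFA4 promoter 51.6%. TATANA, searched on the gene's own strand, matched at 32 and 30 bases before the C15orf48 start, and the matches overlap each other. It occurs in 13.6% of the 27305 RefSeq promoters of the same length. GGGCGG, a GC box, matched on the plus strand at 48 and on the minus strand at 92 bases before that start and occurs in 42.3% of promoters. Of the other motifs, searched on both strands, neither promoter held CCAAT, found in 33.0% of promoters, the E-box CACGTG (6.49%) or the AP-1 motif TGANTCA (6.6%). Neither held the NF-kappaB consensus (5.05%), the interferon response element core (3.07%), the NRF1 motif (5.53%) or the YY1 motif AAGATGG (3.77%). The ETS motif CCGGAAG (8.82%) and the DR3 repeat of the vitamin D response element (0.00732%) had no match either. These letters describe this window only.

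C15orf48 (ENSG00000166920) spans chr15:45430579-45448761 on the plus strand of GRCh38 in GENCODE 44. Its canonical transcript has 5 exons, 649 bases and a coding sequence for 83 residues. NDUFA4 (ENSG00000189043) spans chr7:10931943-10940153 on the minus strand, with 4 exons, 2035 bases and 81 residues. The MIR147B hairpin occupies chr15:45433050-45433129, inside the 3′ UTR in exon 5 of C15orf48 and 34 bases after the stop codon. It is not a separate entry of the table, so the level of the microRNA was not analysed here. The NDUFA4 transcript holds 1 seed match, which starts 56 bases after the stop codon in a 3′ UTR of 1693 bases. Among 15042 coding transcripts of at least that length, 3.42% hold such a match in their last 1693 bases. The C15orf48 transcript holds 0.

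Total counts were 84531039 to 92780032 per library. Values are CPM, counts scaled to a library of 1000000, after TMM scaling, tests are edgeR's quasi-likelihood F-test, and p-values are adjusted by Benjamini-Hochberg over 19101 tested entries with a threshold of 0.05. Of these entries, 38.0% were called, 18.3% higher and 19.7% lower in the overexpressing libraries. A correction for the GC content and length of transcripts left 22.7% called, 11.4% higher and 11.3% lower. Values from that fit are called corrected below. In both fits, 2826 of the 19101 entries were called in the same direction. The carcinoma cytokeratins KRT8 and KRT18, filaments of simple epithelium, averaged 367.9 and 956 CPM in controls and 445.8 and 1301 CPM in overexpressing libraries (log2 0.28 and 0.44, corrected -0.038 and 0.13, the first of the other sign). KRT7 averaged 2.79 and 5.09 CPM, and KRT19 was near 0 at 0.184 and 0.17 CPM. EPCAM, another epithelial marker, is not an entry of the table.

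C15orf48 RNA was 4.571-fold higher in the overexpressing libraries. Controls 1 to 3 held 1496, 1480 and 1507 raw counts of it, and the overexpressing libraries, in the same order, 6586, 6146 and 6580. Its levels were 16.78, 15.64 and 16.78 CPM in the controls and 78.04, 73.65 and 73.18 CPM in the overexpressing libraries. The lowest overexpressing library thus lay far above the highest control, and replicates stayed close together. Mean levels were 16.4 ± 0.658 and 74.96 ± 2.68 CPM (SD, n = 3 each), a log2 fold change of 2.19 with an SE of 0.06. The corrected log2 fold change was 2.34, or 5.06-fold. A log2 fold change of at least that of C15orf48 was found in 124 entries, 0.649% of those tested, and the corrected share was 0.518%. Among the 11486 entries with a mean log2 CPM of at least 2, only 10 (0.0871%) reached it, so most of the larger values belonged to sparsely counted genes.

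NDUFA4 RNA was also higher, but 1.247-fold. Its raw counts were 12500, 12436 and 12646 in the controls and 15046, 14226 and 14879 in the overexpressing libraries. Its levels were 140.2, 131.4 and 140.8 CPM in the controls and 178.3, 170.5 and 165.5 CPM in the overexpressing libraries. The groups did not overlap here either, although the gap was small beside that of C15orf48. Of all tested entries, 50.7% showed no overlap between the groups, 24.7% with the overexpressing libraries higher. Mean levels were 137.5 ± 5.26 and 171.4 ± 6.46 CPM (SD, n = 3 each), a log2 fold change of 0.32 with an SE of 0.05. The corrected value was larger, 0.54 or 1.459-fold. A log2 fold change of at least that of NDUFA4 was common, at 21.0% of entries, or 7.41% after the correction. The NDUFA4 level was thus not lower in the libraries with more C15orf48 RNA. Whether miR-147b acted on NDUFA4 in these cells was not tested, since the level of the microRNA was not analysed. How the authors' counting treated processed pseudogenes of NDUFA4 is not given in the sources used here, so part of its count is uncertain. The entry NDUFA4P1 held 12, 16 and 24 counts in the controls and 14, 30 and 10 in the overexpressing libraries.

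The spread between libraries exceeded counting error for both genes, by less for C15orf48. The coefficient of variation of C15orf48 was 4.01% in controls and 3.58% in overexpressing libraries, against 2.59% and 1.25% from counting alone. For NDUFA4 it was 3.82% and 3.77%, against 0.894% and 0.824%.

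NDUFA4L2, the hypoxia-linked paralogue, was near the lower limit of the table. It held 52, 22 and 44 counts in the controls and 72, 76 and 88 in the overexpressing libraries, the groups without overlap but control 2 well below the other controls. Mean levels were 0.435 ± 0.182 and 0.914 ± 0.0628 CPM (SD, n = 3 each), and it rose 2.10-fold (log2 1.07, SE 0.35, edgeR adjusted p = 0.040). The call was lost after the correction, at a log2 fold change of 0.71 (edgeR adjusted p = 0.20). It was also lost in 5 of the 6 fits that left out 1 library and kept without control 1.

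**Figure D1:**
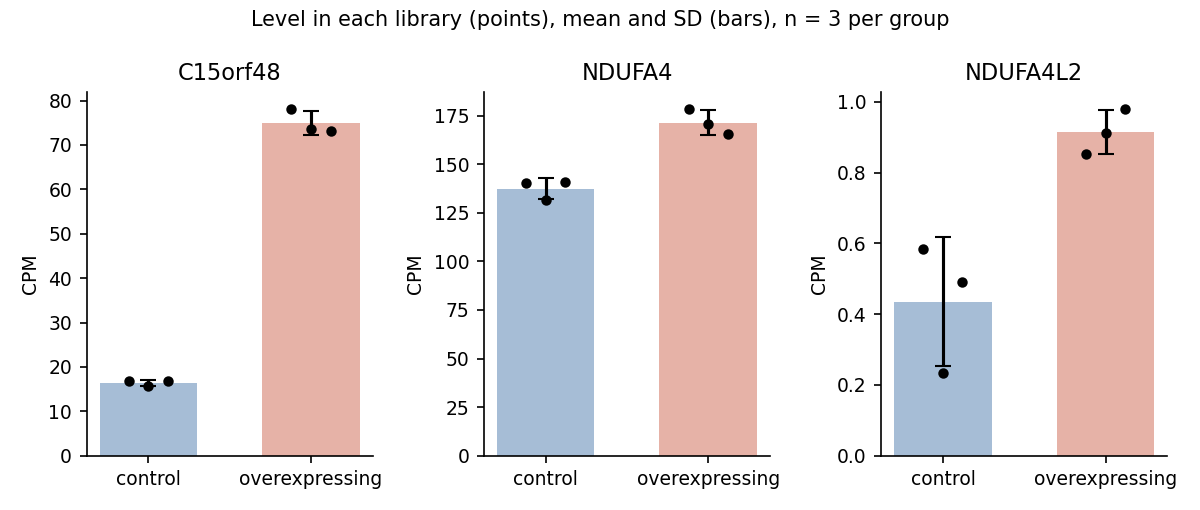
Levels of C15orf48, NDUFA4 and NDUFA4L2 in CPM in the 3 control and 3 overexpressing libraries. C15orf48 was at 73.18 to 78.04 CPM in overexpressing libraries against 15.64 to 16.78 in controls. NDUFA4 was at 165.5 to 178.3 CPM in overexpressing libraries against 131.4 to 140.8 in controls.

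The order of the paralogues per transcript length was exchanged between the groups. Dividing CPM by the length of the canonical transcript in kilobases gave C15orf48 25.27 ± 1.01 in controls and 115.5 ± 4.09 in overexpressing libraries. NDUFA4 was at 67.56 ± 2.58 and 84.23 ± 3.18 CPM per kilobase (SD, n = 3 each). If the canonical lengths hold in these cells, the control libraries held more NDUFA4 than C15orf48 transcripts, and the overexpressing libraries the opposite. NDUFA4 stood above C15orf48 by 2.665-, 2.68- and 2.676-fold in the controls, and its level was 0.7286, 0.7382 and 0.7212 times that of C15orf48 in the overexpressing libraries. On the log2 scale the C15orf48 to NDUFA4 ratio went from -1.419 ± 0.00424 to 0.455 ± 0.0169, a difference of 1.87 (1.79 corrected). The spread of this ratio among controls was below what counting alone gives for C15orf48, so 3 libraries give no firm measure of that spread.

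As a share of the summed length-scaled level of the 3 paralogues, C15orf48 made up 27.11, 27.1 and 27.05% in the controls and 57.6, 57.25 and 57.79% in the overexpressing libraries. NDUFA4 had 72.42 ± 0.191% and 41.97 ± 0.29%, and NDUFA4L2 less than 1 percent in both groups. The smaller NDUFA4 share did not come with a smaller NDUFA4 level, since the summed level of the family was 93.29 ± 3.78 in controls and 200.7 ± 7.18 CPM per kilobase in overexpressing libraries, 2.151-fold more. The crossing rests on the division by length. By CPM alone NDUFA4 stayed above C15orf48 in overexpressing libraries, at means of 171.4 and 74.96 CPM. With all exons of each gene merged, NDUFA4 stood above C15orf48 by 3.271- to 3.29-fold in controls. It stood at 0.8853 to 0.9062 times the C15orf48 level in overexpressing libraries. Which transcript lengths these cells made was not tested. The C15orf48 share then ran from 23.26 to 23.32% in controls and from 52.3 to 52.86% in overexpressing libraries.

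**Figure D2:**
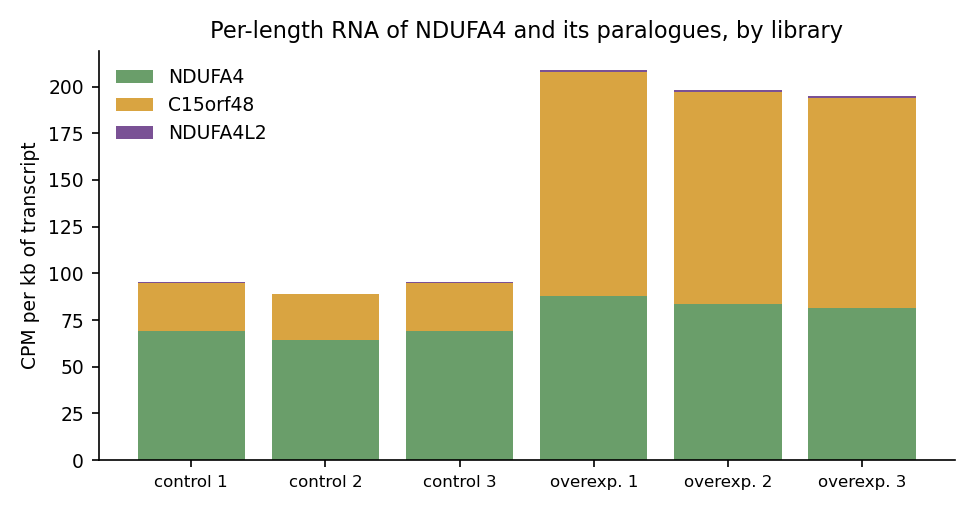
Stacked bars of CPM per kilobase of canonical transcript for the 3 NDUFA4 paralogues in each library, starting at 0. C15orf48 fills 27.05 to 27.11% of each control bar and 57.25 to 57.79% of each overexpressing bar, and the bars grow from a mean of 93.29 to 200.7.

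Among 15 nuclear-encoded subunit genes of complex IV ranked by CPM per kilobase, C15orf48 stood at place 12 in controls and at place 9 in overexpressing libraries. In controls it lay between COX7B, at 36.79 ± 2.10, and COX7B2, a testis-enriched form of that subunit, at 14.79 ± 0.215, and both gaps exceeded the spread. In overexpressing libraries its 115.5 ± 4.13 CPM per kilobase could not be set apart from the 119.2 ± 5.23 of COX5A, which is a constitutive subunit. NDUFA4 stood at place 10 in controls, below COX6C at 77.27 ± 4.62 by more than either SD. It stood at place 11 in overexpressing libraries, where COX6C at 86.35 ± 1.76 differed from it by less than the spread. Levels of both genes were far below those of COX4I1, at 509.2 ± 18.6 and 604.4 ± 29.5 CPM per kilobase. These places rest on the canonical lengths, which were not tested in these cells. By CPM alone C15orf48 was at 74.96 against 139.9 for COX5A in overexpressing libraries. NDUFA4 by CPM was above COX6C in controls, at 137.5 against 57.49.

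Set against the geometric mean of 11 nuclear subunits in the same library, NDUFA4 barely differed between groups. Its log2 ratio to that mean was -1.04, -1.12 and -1.13 in the controls and -1.0, -0.98 and -1.01 in the overexpressing libraries. With the correction the gap was wider, at -1.22, -1.31 and -1.21 against -0.81, -0.78 and -0.93. The log2 ratio of C15orf48 was -2.45, -2.54 and -2.55 in controls and -0.54, -0.55 and -0.54 in overexpressing libraries, so its distance from the other subunits shrank in either reading.

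The other nuclear subunits of complex IV were mildly higher. Of 16 listed genes, 12 were in the table, 8 rose and 0 fell, against 18.3% and 19.7% of all entries, and the median log2 fold change was 0.24 against 0.00 over all entries. COX5B, a subunit that holds a zinc ion, rose 1.366-fold from 85.68 ± 4.96 to 117 ± 7.37 CPM (SD, n = 3 each, edgeR adjusted p = 6e-04). COX7A2, a subunit at the dimer face of the enzyme, rose 1.296-fold from 91.55 ± 4.99 to 118.6 ± 8.41 CPM (edgeR adjusted p = 0.0015). After the correction 5 rose and 0 fell, against 11.4% and 11.3%, with a median of 0.19, and 4 genes rose in both fits: COX5B at 0.22, COX6C at 0.30, COX7A2 at 0.29 and COX7B at 0.35. COX6C and COX7B were near the threshold as fitted (log2 0.16 each, edgeR adjusted p = 0.040 and 0.045). COX6C kept its call only without control 3, and COX7B only without control 3 or overexpressing library 3, among the fits with 1 library left out. COX4I1 (log2 0.25) and COX6A1 (0.34) rose only as fitted, with corrected values of 0.00 and 0.07. COX6B1 and COX8A rose as fitted by 0.24 each, while their corrected values of -0.033 and -0.12 had the other sign and passed no test. COX8A also lost its call without control 2.

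COX7C, not called as fitted at 0.06 (edgeR adjusted p = 0.32), rose after the correction at 0.19 (edgeR adjusted p = 0.017). COX5A had a log2 fold change of 0.11 (edgeR adjusted p = 0.16) and was called, at 0.16, without control 3. COX7B2 was at 0.06 (edgeR adjusted p = 0.71). COX7A1, the muscle form of COX7A2, held 10, 8 and 4 counts in controls and 11, 15 and 18 in overexpressing libraries and was not called (edgeR adjusted p = 0.27). The tissue-specific forms COX4I2, COX6A2, COX6B2 and COX8C were not entries of the table. Without control 2 the number of nuclear subunits called was 5.

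The mitochondrially encoded catalytic subunits went the other way: 3 of 3 fell, as fitted and after the correction, against 19.7% and 11.3% of all entries. MT-CO1, which holds the oxygen-reducing site, was at 3058, 3134 and 2849 CPM in the controls and 1633, 1800 and 1863 CPM in the overexpressing libraries. All overexpressing values were below all controls, and the mean fell from 3014 ± 148 to 1765 ± 119 CPM (SD, n = 3 each, log2 -0.77, SE 0.06, edgeR adjusted p = 5.9e-05). MT-CO2, the subunit that receives electrons from cytochrome c, fell by 0.67 on the log2 scale (edgeR adjusted p = 2.3e-04). MT-CO3, the third core subunit, was at 1888, 1889 and 1673 CPM in controls and 1062, 1107 and 1122 CPM in overexpressing libraries, a fall by 0.73 (edgeR adjusted p = 5.7e-05). The ratio of the geometric mean of these 3 to that of 11 nuclear subunits was 15.43, 16.11 and 13.0 in controls and 7.121, 7.979 and 8.008 in overexpressing libraries. The difference in its log2 was -0.94, from 3.89 ± 0.16 to 2.94 ± 0.10 (SD, n = 3 each, two-sided exact permutation test p = 0.1, the smallest that 3 against 3 can give). Whether RNA quality or the share of mitochondrial RNA recovered differed between the groups was not tested.

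**Figure D3:**
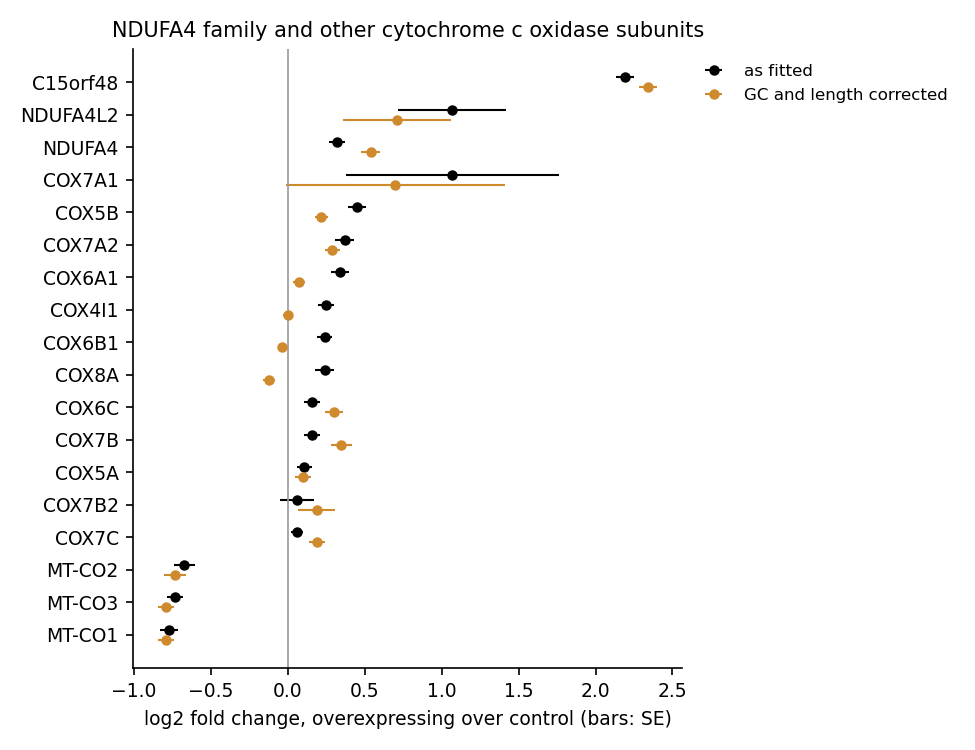
Log2 fold change, overexpressing over control, of the NDUFA4 paralogues and of the nuclear and mitochondrial subunits of complex IV, with bars for the SE, as fitted and after the GC and length correction. C15orf48 lies at 2.19 and 2.34, NDUFA4 at 0.32 and 0.54, and MT-CO1, MT-CO2 and MT-CO3 between -0.79 and -0.67.

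Factors that assemble complex IV were called, as fitted, at shares near those of all entries. Of 33 genes, 7 rose and 7 fell, against 18.3% and 19.7% of all entries, with a median of -0.04. After the correction 7 rose and 3 fell, against 11.4% and 11.3% of all entries, so the share that rose was above that of all entries. The corrected median was 0.02, and 3 genes were called in the same direction in both fits, against 2826 of all 19101 entries. LRPPRC, which stabilises mitochondrial messenger RNAs, fell from 235 ± 14.1 to 154.9 ± 15.4 CPM (SD, n = 3 each, log2 -0.60, edgeR adjusted p = 4.4e-04, corrected -0.21). COX7A2L, which joins complex IV to complex III in supercomplexes, rose from 89.09 to 108.9 CPM (log2 0.29, edgeR adjusted p = 9.3e-04, corrected 0.54). OXA1L, the inner membrane insertase, rose by 0.22 (edgeR adjusted p = 0.0033, corrected 0.15).

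Other members of this list were called in 1 fit or changed sign. HIGD2A, which takes part in assembly around MT-CO3, rose by 0.38 on the log2 scale and SURF1, an early assembly factor, by 0.31 (edgeR adjusted p = 0.0019 and 0.0020), with corrected values of 0.07 and -0.0046 that were not called. SCO1, a copper chaperone, fell by 0.18 as fitted (edgeR adjusted p = 0.0077) and rose after the correction, by 0.16 (edgeR adjusted p = 0.018). TIMM21 and COX20, which help handle newly imported or inserted subunits, fell by 0.32 and 0.27 (edgeR adjusted p = 0.0079 and 0.0087), with corrected values of -0.10 and -0.03. HIGD1A, a hypoxia-inducible regulator of the enzyme, was at -0.06 (edgeR adjusted p = 0.42) and, with the other sign, at 0.23 after the correction (edgeR adjusted p = 0.0080).

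Among the other complexes of the chain, a minority of the listed genes rose, at shares above that of all entries. Of 12 NDUFA accessory subunits of complex I, the family whose name NDUFA4 carries, 4 rose and 0 fell, with a median of 0.11. The shares of all entries were 18.3% and 19.7%. After the correction 4 rose as well and 0 fell, against 11.4% and 11.3%, with a median of 0.06 and 1 gene in common. That gene was NDUFA1, at 0.32 (edgeR adjusted p = 0.0041) and 0.28 corrected. NDUFA11 (0.42), NDUFA2 (0.33) and NDUFA13 (0.36) rose as fitted, with corrected values of 0.03, 0.11 and, with the other sign, -0.034. Without overexpressing library 3 the number called was 7. Of 10 genes for complex III and cytochrome c, 4 rose and 1 fell, against 18.3% and 19.7% of all entries, with a median of 0.10. After the correction 4 rose and 0 fell, against 11.4% and 11.3% of all entries, with a median of 0.04. The 4 as fitted were CYC1 (0.30), UQCRC1 (0.35), UQCRQ (0.29) and UQCR11 (0.24), of which UQCRQ was also called after the correction, at 0.23. The corrected values of UQCRC1 and UQCR11 were 0.037 and 0.011, and that of CYC1, -0.053, had the other sign. CYCS, the somatic cytochrome c, fell by 0.23 as fitted (edgeR adjusted p = 0.019), while it rose after the correction, by 0.13 (edgeR adjusted p = 0.047). Its call as fitted was lost without overexpressing library 2, control 1 or control 2.

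NF-kappaB and cytokine-induced genes, the class to which C15orf48 is known to belong, were mostly higher. Of 24 genes listed, 19 were in the table, 14 rose and 0 fell, against 18.3% and 19.7% of all entries, and the median log2 fold change was 0.58. After the correction 13 rose and 0 fell, against a background of 11.4%, with a median of 0.63, and 12 rose in both fits. This list was drawn up with earlier results of these data known. SOD2, a known NF-kappaB target that fell as fitted, was counted in the list of mitochondrial proteins below. Not called as fitted were REL at -0.58, NFKB1 at 0.12 and NFKBIZ at 0.54 (edgeR adjusted p = 0.10, 0.075 and 0.071). TNFAIP2 at 0.24 and CXCL8, on few counts, at 1.22 were not called either (edgeR adjusted p = 0.50 and 0.54). TRAF1, an adaptor of tumour necrosis factor receptors, was at 15.68, 16.98 and 18.97 CPM in controls and 48.97, 50.69 and 47.42 CPM in overexpressing libraries. It rose 2.848-fold (log2 1.51, SE 0.08, edgeR adjusted p = 1.2e-05), the largest rise of the list and smaller than the 4.571-fold difference of C15orf48. CXCL2, a neutrophil-attracting chemokine, was at 97.77, 97.84 and 106.2 CPM in controls and 209.1, 202.2 and 193.4 CPM in overexpressing libraries, a 2.003-fold rise (edgeR adjusted p = 9.2e-06).

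RELB and NFKB2, which form the transcription factor of the non-canonical NF-kappaB pathway, both rose. RELB rose 2.065-fold from 90.51 to 186.9 CPM (edgeR adjusted p = 2.6e-05, corrected log2 0.73 against 1.05 as fitted). NFKB2 rose 1.958-fold from 206.1 ± 21.4 to 403.5 ± 21 CPM (SD, n = 3 each, edgeR adjusted p = 6.6e-05, corrected log2 0.70). Of the cytokine genes in the list, CCL20, IL1A, IL1B, IL6 and TNF were not entries of the table.

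**Figure D4:**
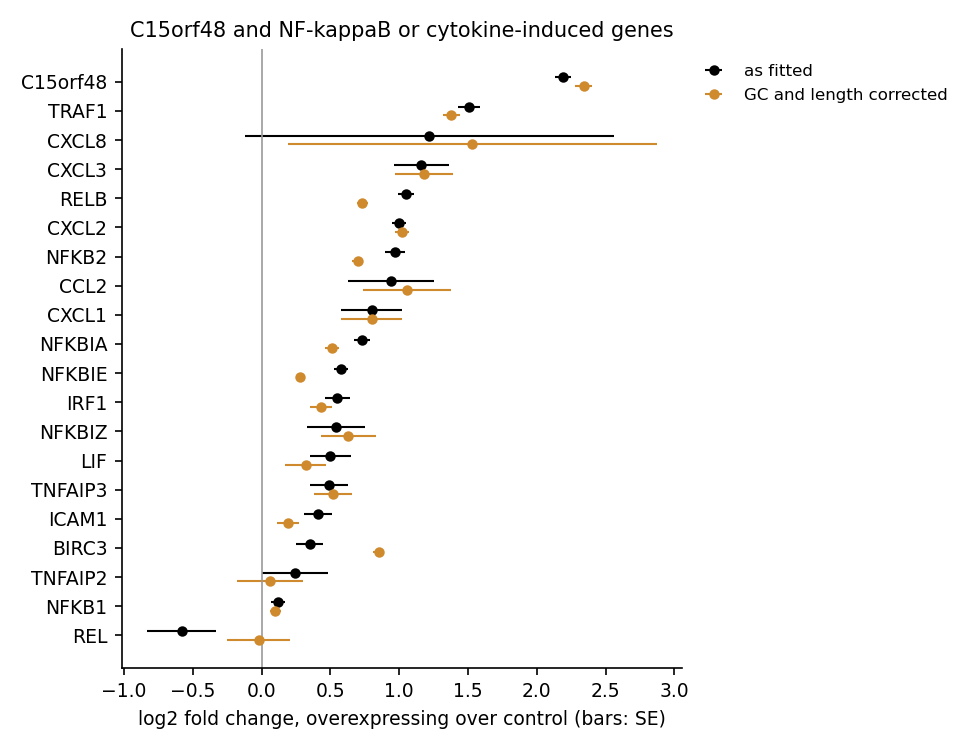
Log2 fold change, overexpressing over control, of C15orf48 and the 19 NF-kappaB or cytokine-induced genes in the table, with bars for the SE, as fitted and after the GC and length correction. C15orf48 at 2.19 lies above every gene of the list as fitted, of which TRAF1 at 1.51 is the highest.

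Other mitochondrial proteins of inflammation or interferon responses went in both directions as fitted. Of 10 genes, 8 were in the table, 5 rose and 2 fell, against 18.3% and 19.7% of all entries, with a median of 0.23. After the correction 2 rose and 0 fell, against 11.4% and 11.3%, and IFI6 alone was called in the same direction in both fits. IFI6, an interferon-induced protein of mitochondria and other membranes, was at 12.5, 13.42 and 14.83 CPM in controls and 37.55, 40.66 and 37.06 CPM in overexpressing libraries. It rose 2.829-fold (edgeR adjusted p = 1.7e-05, corrected log2 1.19 against 1.5). SOD2, the manganese superoxide dismutase and a known NF-kappaB target, fell from 128.9 to 102.6 CPM as fitted (log2 -0.33, edgeR adjusted p = 7.7e-04), while it rose after the correction, by 0.17 (edgeR adjusted p = 0.014).

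NLRX1 (0.46), IFI27 (1.22) and UCP2 (0.21) rose and PNPT1 fell by 0.37 as fitted, and none of these was called after the correction. Their corrected values were 0.24, 0.88, -0.077 and -0.016, with the sign of UCP2 turned. IFI27 and PNPT1 lost their calls without overexpressing library 2, control 1 or control 2, and UCP2 without these or overexpressing library 1. ACOD1, the itaconate-forming enzyme of activated macrophages, and CMPK2 were not entries of the table. The number called was 3 in place of 7 without overexpressing library 2, without control 1 or without control 2.

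Markers of leukocytes and macrophages, cells in which C15orf48 is known to be induced, were low apart from CD68. Of 10 markers, PTPRC, TYROBP, LYZ, AIF1 and FCER1G were not entries of the table. Of the 5 that were, 3 rose and 0 fell, against 18.3% and 19.7% of all entries, and 1 rose after the correction, against 11.4%. ITGAM, an integrin chain of myeloid cells, was at 2.89 ± 0.469 and 3.51 ± 0.529 CPM, and SPI1, a myeloid transcription factor, at 0.421 ± 0.139 and 0.381 ± 0.303 CPM (SD, n = 3 each), neither called (edgeR adjusted p = 0.26 and 0.89). CD14, a lipopolysaccharide co-receptor, was at 0.157, 0.127 and 0.0445 CPM in controls and 1.41, 1.726 and 0.7118 CPM in overexpressing libraries (log2 3.53, edgeR adjusted p = 7.5e-04). CSF1R, a growth factor receptor of macrophages, was at means of 0.0485 and 0.304 CPM (edgeR adjusted p = 0.050, 0.090 corrected), and its call was kept only without control 1 among the fits with 1 library left out. CD68, a lysosomal protein that many cell types make, went from 71.9 to 83.17 CPM (log2 0.21, edgeR adjusted p = 0.0094), with a corrected value of -0.061 of the other sign. The summed level of the list was 72.77 to 77.25 CPM in controls and 83.89 to 93.3 CPM in overexpressing libraries. None of the 8 markers of squamous epithelium, a tissue with high C15orf48, was an entry of the table.

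As fitted on all 6 libraries, no gene around C15orf48 in the table had a log2 fold change as large as its own. Only 0.649% of all tested entries reached that value. GENCODE 44 places 58 genes within 500 kilobases of the pair, of which 14 are in the table, 12 of them near C15orf48. Of the 14, 5 were called, 2 higher and 3 lower, a share near the 38.0% of all entries, with a median of 0.04. After the correction 1 rose and 1 fell, against 11.4% and 11.3% of all entries, and these 2 were called the same way as fitted. SQOR, the sulfide quinone oxidoreductase of mitochondria, at chr15:45631148-45691281, was at 27.66, 28.66 and 28.27 CPM in controls and 34.1, 35.31 and 35.38 CPM in overexpressing libraries (log2 0.31, edgeR adjusted p = 0.0025, corrected 0.20). PHF14, a chromatin protein gene and the nearest to NDUFA4 in the table, at chr7:10973336-11169623, fell from 67.95 ± 3.5 to 46.23 ± 4.94 CPM (SD, n = 3 each, log2 -0.56, edgeR adjusted p = 7.1e-04, corrected -0.40). It lies on the strand opposite to NDUFA4, whose level was higher.

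SHF rose by 0.44 (edgeR adjusted p = 0.041), BLOC1S6, a subunit of a lysosome-related organelle complex, fell by 0.38 (0.010) and THSD7A fell by 0.87 (0.036), none of them called after the correction, at 0.11, -0.034 and -0.43. SHF kept its call only without overexpressing library 3, and THSD7A only without overexpressing library 2 or control 1, among the fits with 1 library left out. The nearest coding neighbours in the table on either side of C15orf48 were AFG2B, at 0.09 (edgeR adjusted p = 0.40), and the zinc transporter SLC30A4, at -0.19 (edgeR adjusted p = 0.22). GATM, the first enzyme of creatine synthesis, was at -0.30 (edgeR adjusted p = 0.12), and SORD, the sorbitol dehydrogenase, at -0.01 (edgeR adjusted p = 0.83). DUOX1, a hydrogen peroxide-producing oxidase, had 1.05 (edgeR adjusted p = 0.23). The antisense gene ENSG00000259539 had 0.00 (edgeR adjusted p = 1.0), and SLC28A2-AS1 had 0.77 (edgeR adjusted p = 0.62). Without overexpressing library 1 or without control 3, the number of neighbours called was 3.

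Beside MIR147B, other non-coding genes overlap C15orf48. ENSG00000259342, on the opposite strand, held 2, 13 and 2 counts in controls and 19, 10 and 32 in overexpressing libraries (log2 1.91, edgeR adjusted p = 0.12). Its groups overlapped through control 2, and without that library it was called, at 3.31. SLC30A4-AS1, on the same strand at the far end of the gene, held 35, 56 and 34 counts in controls and 46, 64 and 73 in overexpressing libraries (log2 0.64, edgeR adjusted p = 0.16). The strandedness of the libraries is not given in the sources used here, so reads of C15orf48 and of these genes may not be told apart, but their counts were below those of C15orf48 in every library. No annotated gene overlaps NDUFA4.

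Few genes had a pattern like that of C15orf48. Likeness was the root mean square difference between the 6 log2 CPM values of both genes, each minus its control mean, over 11222 candidates with a mean log2 CPM of at least 2. The most similar was RIGI, a sensor of viral RNA, with a difference of 0.124. RIGI was at 9.199, 9.236 and 8.761 CPM in controls and 39.76, 38.33 and 47.63 CPM in overexpressing libraries. SEMA3F, a secreted guidance protein gene, followed at 0.212, NR4A2, an orphan nuclear receptor gene, at 0.217, SAMD11 at 0.225 and PMAIP1, a pro-apoptotic BH3-only gene, at 0.241. No candidate lay within 0.1 of C15orf48, while 1777 lay within 0.1 of NDUFA4. The measure includes the size of the group difference, which few entries share with C15orf48 and many with NDUFA4. These counts therefore largely restate that size. The nearest to NDUFA4 were RNF166 at 0.015, RAB32 and SNX8 at 0.016 and PSMG3 and RPL13AP5 at 0.019. Because likeness uses the same 6 libraries that chose the pair, it is a description.

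**Figure D5:**
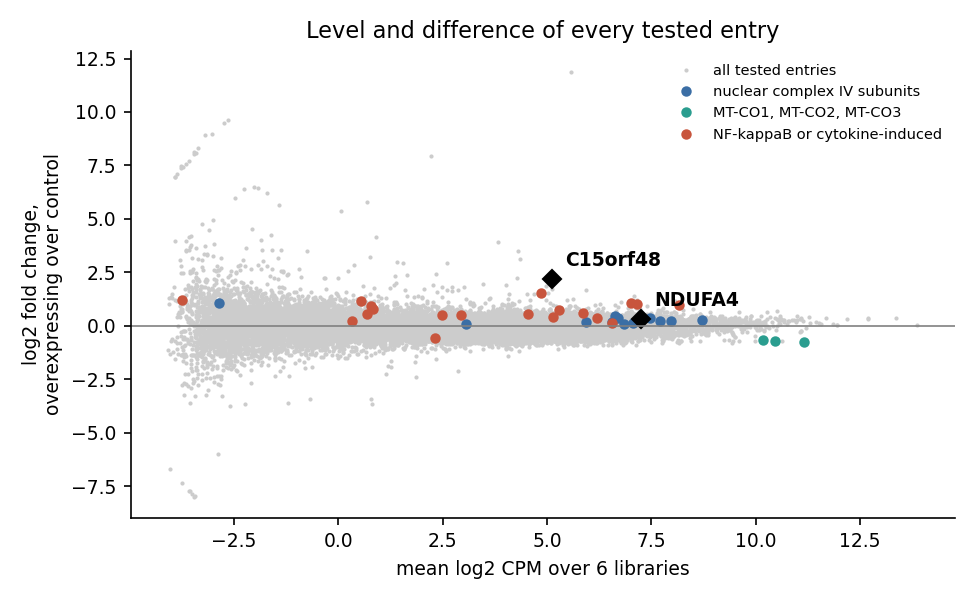
Log2 fold change, overexpressing over control, against mean log2 CPM for all tested entries, with C15orf48 and NDUFA4 marked. Colours show the nuclear complex IV subunits, MT-CO1, MT-CO2 and MT-CO3, and the NF-kappaB or cytokine-induced genes. C15orf48 at 2.19 lies at the upper edge of the entries of its level, where 0.0871% of the 11486 entries with a mean log2 CPM of at least 2 reach it, and NDUFA4 at 0.32 lies within the main body.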

How the data were processed

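RNA-seq was run on 6 H1299 samples, grouped by their labels. Per the labels' protocols, the authors took RNA with TRIzol, ran fastp, HISAT2 (GRCh38), StringTie and gffcompare, and used edgeR for tests. For versions, library kit, strandedness and the counting step the entry is: not given in the sources used here. What the authors deposited are raw, unscaled counts for each gene.

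The test was edgeR 4.0.16 under R 4.3.3 (quasi-likelihood F-test, TMM, filterByExpr with min.count 10 and min.total.count 15), on 19101 entries. For the GC and length correction, each library's log2 CPM deviation was modelled by natural splines (5 df) and used as an offset. Simulated data with a GC trend gave 1895 false calls as fitted and 16 corrected, with 79% of 1.5-fold and 99% of 2-fold changes recovered among 18531 genes. The simulated trend was linear in GC content, equal in all overexpressing libraries and without a length trend. These counts therefore hold for that setting only. No library was treated as a duplicate, since pairs within a group gave a chi-square of 11.4 to 22.2 for each degree of freedom. Low genes, under 1 CPM, rest on few counts.

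The pair and the lists were chosen with earlier results of these data known. Named genes were the paralogues, all subunits of complex IV expressed at a mean log2 CPM of 2 or called, up to 4 rising and 4 falling genes of each other list with the smallest p, listed isoforms, neighbours within 500 kilobases and 5 genes of most similar pattern for each member. The keratins, ITGAM, SPI1, the NF-kappaB genes not called as fitted and list genes absent from the table were named beside that rule. One marker is not reported here. DESeq2 1.42.0 and limma-voom (limma 3.58.1), other scalings, no filter, a replicate block and leaving out each library were alternatives.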

Additional observations from a re-analysis of the deposited data

How the results depend on the processing

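C15orf48 and NDUFA4 were higher in the overexpressing libraries under every alternative run. C15orf48 had a log2 fold change of 2.16 to 2.21 with 1 library left out and 2.34 with the GC and length correction, also with a replicate block; NDUFA4 had 0.29 to 0.34 and 0.54. The log2 ratio of the pair per length differed by 1.87 to 1.88 with 1 library left out and by 1.79 corrected. With the correction, entries called numbered 4337 in place of 7250, nuclear complex IV subunits 5 in place of 8, inflammation-linked mitochondrial genes 2 in place of 7, macrophage markers 1 in place of 3 and neighbours 2 in place of 5. With the replicate block and correction together, entries called were 3346, nuclear subunits 5, assembly factors 9 in place of 14, complex III genes 3 in place of 5, inflammation-linked genes 2, macrophage markers 1 and neighbours 2. The cause of these losses was not tested. The labels' rule of 2-fold and p 0.05 without adjustment gave 564 entries. With 1 library left out, entries called were 5453 to 7114, nuclear subunits 5 to 9, catalytic subunits 3, assembly factors 10 to 15, NDUFA subunits 4 to 7, complex III genes 4 to 5, NF-kappaB genes 10 to 13, inflammation-linked genes 3 to 7, macrophage markers 2 to 3 and neighbours 3 to 4, and the mitochondrial to nuclear log2 difference was -1.04 to -0.88.

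Same-numbered libraries of the groups did not deviate together (correlations of -0.0735, -0.262 and -0.438 over 10091 genes), so there was no sign that the replicate numbers pair the samples. With 3 libraries per group this check cannot exclude that same-numbered libraries were prepared together. With the replicate block alone, 5695 entries were called and 7 named genes lost their calls, NDUFA4L2, COX6C, COX7B, CYCS, UCP2, CSF1R and SHF, at edgeR adjusted p-values of 0.054, 0.10, 0.11, 0.056, 0.086, 0.066 and 0.052. Signs turned with the correction, and with the block and correction, for COX6B1 (-0.033 in both), COX8A (-0.12), SURF1 (-0.0046 and -0.0044), SCO1 (0.16), NDUFA13 (-0.034 and -0.035), CYC1 (-0.053), CYCS (0.13), UCP2 (-0.077 and -0.076), SOD2 (0.17), CD68 (-0.061), SORD (0.1), AFG2B (-0.13), SLC30A4 (0.26), HIGD1A (0.23 and 0.24), RNF166 (-0.00099 and -0.00058) and RPL13AP5 (-0.0083 and -0.0076). SORD ranged from -0.037 to 0.0095 with 1 library left out. ENSG00000259539, close to 0 as fitted, was at 0.0051 with DESeq2, 0.0053 with its size factors, 1.35 with voom, 0.58 with the block, 0.30 with block and correction, and ran from -0.58 to 0.62 with 1 library left out. Over the 71 named genes, changing 1 choice kept direction and side of the threshold in 445 fits, lost the call in 31, turned the sign in 20 and gained a call in 1. The block and correction together did so in 35, 18, 17 and 1 fits. Leaving out 1 library did so in 378, 42, 4 and 2 fits. Depth limits NDUFA4L2, COX7A1 and the antisense genes, which held under 100 counts in most libraries.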
